A study of Mus musculus with 2 samples.

Results

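The spots described here came from 1 section of mouse calvarial bone, that is, of the roof of the skull, and were chosen for transcripts of skeletal muscle. A spot is a barcoded patch of a spatial array that can hold several cells or parts of cells. The section, labelled Blank, held a bone defect repaired without collagen/nHA material, and it was harvested after 7 days, frozen in OCT and cut. A second section, labelled Col_nHA, held a defect repaired with collagen/nHA material and was treated likewise. The labels name no strain, age or sex and do not say how many animals gave tissue. Of the 4992 Blank barcodes, 2249 held at least 3667 UMIs and were kept as spots. The 120 kept spots with the highest share of UMIs in 5 fat cell genes (Cfd, Adipoq, Cidec, Retn and Plin1) were set aside. The remaining spots were ranked by the share of their UMIs in Myh2, Sln and Csrp3, and the first 120, or 5.34% of the kept Blank spots, are called muscle spots below. The other 2009 kept spots, neither chosen nor set aside for fat, are called the other Blank spots. The kept spots of both sections came to 4720. No image or spot position was used, so nothing is said here about where a spot lay.

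Skeletal muscle fibres contract when myosin heads of the thick filament pull on the actin of the thin filament. Adult fast fibres differ in their myosin heavy chain: Myh2 encodes the chain of type IIA fibres, Myh1 that of type IIX and Myh4 that of type IIB, while Myh3 and Myh8 encode embryonic and perinatal chains that return in newly formed fibres after injury. Sln encodes sarcolipin, a small membrane peptide that binds the calcium pump of the sarcoplasmic reticulum. Csrp3 encodes muscle LIM protein, which sits at the Z disc and responds to mechanical load.

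The myosin genes named above lie side by side on chromosome 11 of the GRCm38.p6 mouse assembly, and Sln and Csrp3 lie elsewhere. On the forward strand, Myh3 spans positions 67078273 to 67102291, Myh2 spans 67171027 to 67197517, Myh1 spans 67200102 to 67224577, Myh4 spans 67237812 to 67260447 and Myh8 spans 67277124 to 67308634. Sln spans 53850251 to 53853849 on chromosome 9, and Csrp3 spans 48830398 to 48848051 on chromosome 7. Because these adult myosin neighbours differ in level below, the 250 bases before the annotated start of each adult myosin gene are shown, from RefSeq's GRCm38.p6 table, 5′ to 3′ on the forward strand. The capitals mark the longest run of letters that these windows share, 20 bases long.
Myh2, chr11:67170777-67171026: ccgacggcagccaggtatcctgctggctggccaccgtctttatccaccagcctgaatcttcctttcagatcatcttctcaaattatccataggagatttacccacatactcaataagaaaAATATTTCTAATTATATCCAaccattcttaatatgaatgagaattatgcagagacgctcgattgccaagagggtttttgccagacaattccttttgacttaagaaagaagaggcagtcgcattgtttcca
Myh1, chr11:67199852-67200101: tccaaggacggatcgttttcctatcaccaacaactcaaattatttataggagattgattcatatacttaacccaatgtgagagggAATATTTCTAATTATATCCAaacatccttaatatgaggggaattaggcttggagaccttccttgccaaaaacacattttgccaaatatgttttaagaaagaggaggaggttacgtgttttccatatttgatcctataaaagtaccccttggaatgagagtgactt
Myh4, chr11:67237562-67237811: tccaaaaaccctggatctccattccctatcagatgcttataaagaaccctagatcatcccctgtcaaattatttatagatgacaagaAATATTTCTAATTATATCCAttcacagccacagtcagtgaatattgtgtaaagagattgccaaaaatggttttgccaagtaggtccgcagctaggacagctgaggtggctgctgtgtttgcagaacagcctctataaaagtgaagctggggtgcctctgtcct
The shared run began 130 bases before the start of Myh2, 165 before that of Myh1 and 163 before that of Myh4. Of 32851 windows in the table, these 3 held it on either strand. The E-box letters CANNTG, which read the same on both strands and are bound by the MyoD family of muscle regulators, were absent from the Myh2 and Myh1 windows and occurred 2 times in that of Myh4. At least 1 such match was in 66.2% of all windows. The MEF2 motif, searched by its palindromic consensus, had 1 match in each of the Myh1 and Myh4 windows and none in that of Myh2, against 2.92% of all windows with a match. A window upstream of Csrp3 is shown for contrast, on the reverse strand, with its 4 CANNTG matches in capitals.
Csrp3, chr7:48848052-48848301: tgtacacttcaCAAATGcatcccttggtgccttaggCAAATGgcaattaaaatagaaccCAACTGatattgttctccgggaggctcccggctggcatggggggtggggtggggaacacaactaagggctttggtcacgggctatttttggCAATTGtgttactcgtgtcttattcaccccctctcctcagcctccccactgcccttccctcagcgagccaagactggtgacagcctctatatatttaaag
At least 3 CANNTG matches were in 12.2% of all windows. These matches are letters in a window and say nothing of binding.

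The muscle spots held 3780 to 42577 UMIs, with a median of 12099, and 1725839 in all. The other Blank spots held 3667 to 82267 UMIs with a median of 9805. The muscle spots made up 5.62% of the UMIs of the kept Blank spots and 63.8% of their Myh2, Sln and Csrp3 UMIs. No UMI of these 3 genes was found in 1233 of the kept Blank spots. Values below are CPM, counts scaled to a common total after summing UMIs over a set of spots, and each interval is an exact 95% one for counting error alone. With 1 section per group there is no estimate of the spread between animals or sections, so no test between groups was made. In such mixed spots, fewer cells of a type and less RNA per cell cannot be told apart.

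The rule's own genes set the choice of spots, and their values are given as a description. Myh2 stood at 2039.6 CPM in the muscle spots and 41.6 in the other Blank spots, from 3520 and 1160 UMIs. Across the 120 spots it ranged from 0 to 237 UMIs with a median of 13. Csrp3 stood at 1023.9 and 35.4 CPM and ranged from 0 to 94 UMIs per spot with a median of 5. Sln was much scarcer, at 177 and 4.59 CPM, with 0 to 32 UMIs per spot and a median of 1. Only 1 of the 120 spots lacked Myh2 and 5 lacked Csrp3, but 51 lacked Sln, and all 3 genes were found together in 66. Sln was thus found in 69. These genes chose the spots, so finding a UMI of them there is no test of the name of the set. A ranking by Myh2 alone would have kept 100 of the 120 spots, by Csrp3 alone 78 and by Sln alone 56. Removing Sln from the rule kept 116 of them.

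The share of UMIs in the rule's genes had no step at the last rank. The first spot had 1.16% of its UMIs in them, from 263 of 22618 UMIs. The 119th had 0.105% and the 120th 0.103%, from 15 of 14586 UMIs, while the next spots outside, ranks 121 and 122, both had 0.102%. In 24 of the 120 spots fewer than 10 UMIs of the rule's genes placed the spot. The cut on fat genes was as close, with 0.185% of UMIs on both its sides. Had no spot been set aside for fat, 32 of those spots would have entered the top 120.

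**Figure D1:**
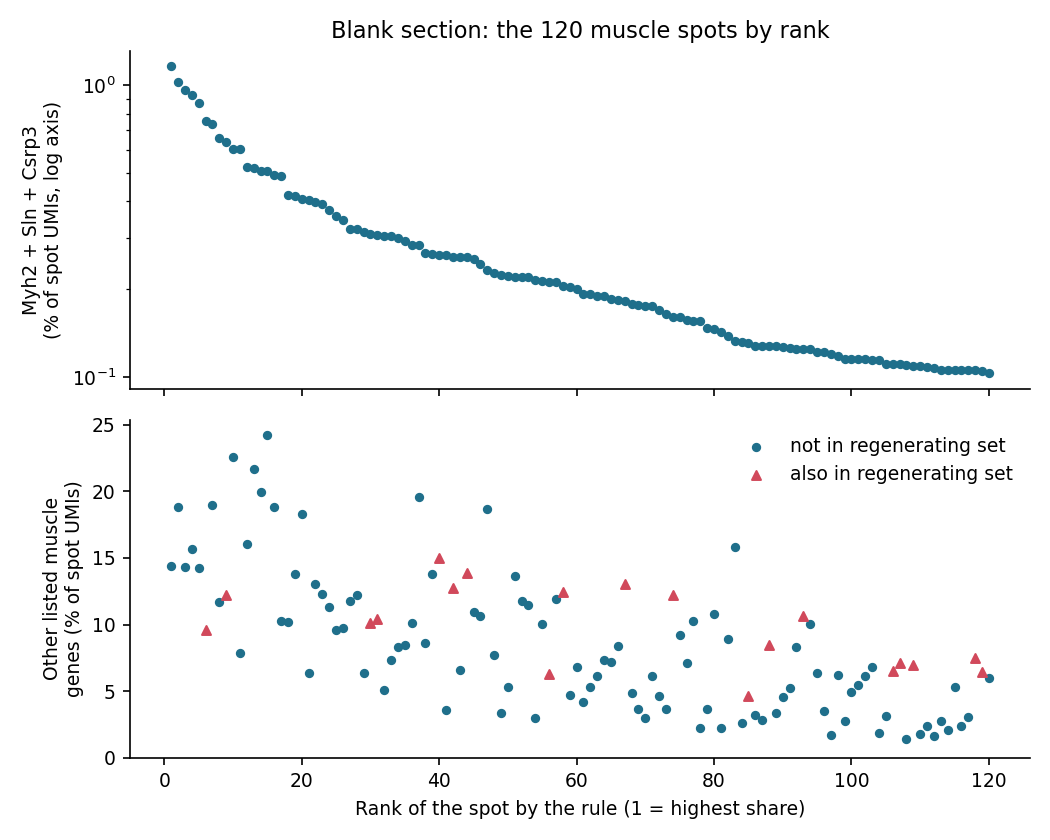
Each point is 1 of the 120 muscle spots of the Blank section, ordered by rank, with the share of its UMIs in Myh2, Sln and Csrp3 in the upper panel (log axis) and in 108 other listed muscle genes in the lower panel. The rule's share runs from 1.16% to 0.103% without a step, the other muscle genes scatter between 1.39% and 24.2%, and triangles mark the 19 spots that were also among the top 120 by genes of regenerating fibres.

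Other genes of the contractile apparatus were found in the same spots. The 108 listed muscle genes outside the rule took a median of 7.59% of a muscle spot's UMIs, from 1.39% to 24.2%, against a median of 0.552% in the other Blank spots. All 120 muscle spots lay above that median of the other spots, and 12 of the 2009 other spots lay above the median muscle spot. A ranking by these 108 genes shared 91 of its top 120 spots with the rule. By this measure the spots were mixed rather than pure muscle: 47 of the 120 had at least 10% of their UMIs in these genes. The spots share 1 section and differ in depth, and among them the muscle share had a Spearman rank correlation of 0.671 with total UMIs and of −0.810 with the share of fibroblast genes (120 spots).

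Within the Blank section, 10139 genes reached 10 CPM in the muscle spots, the other spots or both. Of these, 855 (8.43%) were at least 2-fold higher in the muscle spots and 646 (6.37%) at least 2-fold lower, with a median log2 ratio of −0.04 over all of them. With the listed muscle genes left out of the total that CPM is scaled to, 1126 were higher and 481 lower. The spots were chosen on this contrast, so these counts and all values against the other Blank spots describe what the chosen spots hold. Among the 15 highest ratios by the naming rule, 9 genes were on the muscle lists, a count that takes in the rule's own genes, Myh2 among them. Behind Myh2 stood Myf6, a muscle regulatory factor of mature fibres, at 60.3 against 1.54 CPM (39.0-fold, 27.1 to 57.1). Smtnl1, a smoothelin-like protein of muscle, stood 38.6-fold higher (30.01 to 49.9) and Abra, an actin-binding protein of striated muscle, 36.1-fold higher (25.3 to 52.0). Tcap, the telethonin that caps titin at the Z disc, had 1916.8 against 58.6 CPM (32.7-fold, 30.8 to 34.7). Mb, the oxygen store myoglobin, had 3117.9 against 101 CPM (30.8-fold, 29.4 to 32.2).

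**Figure D2:**
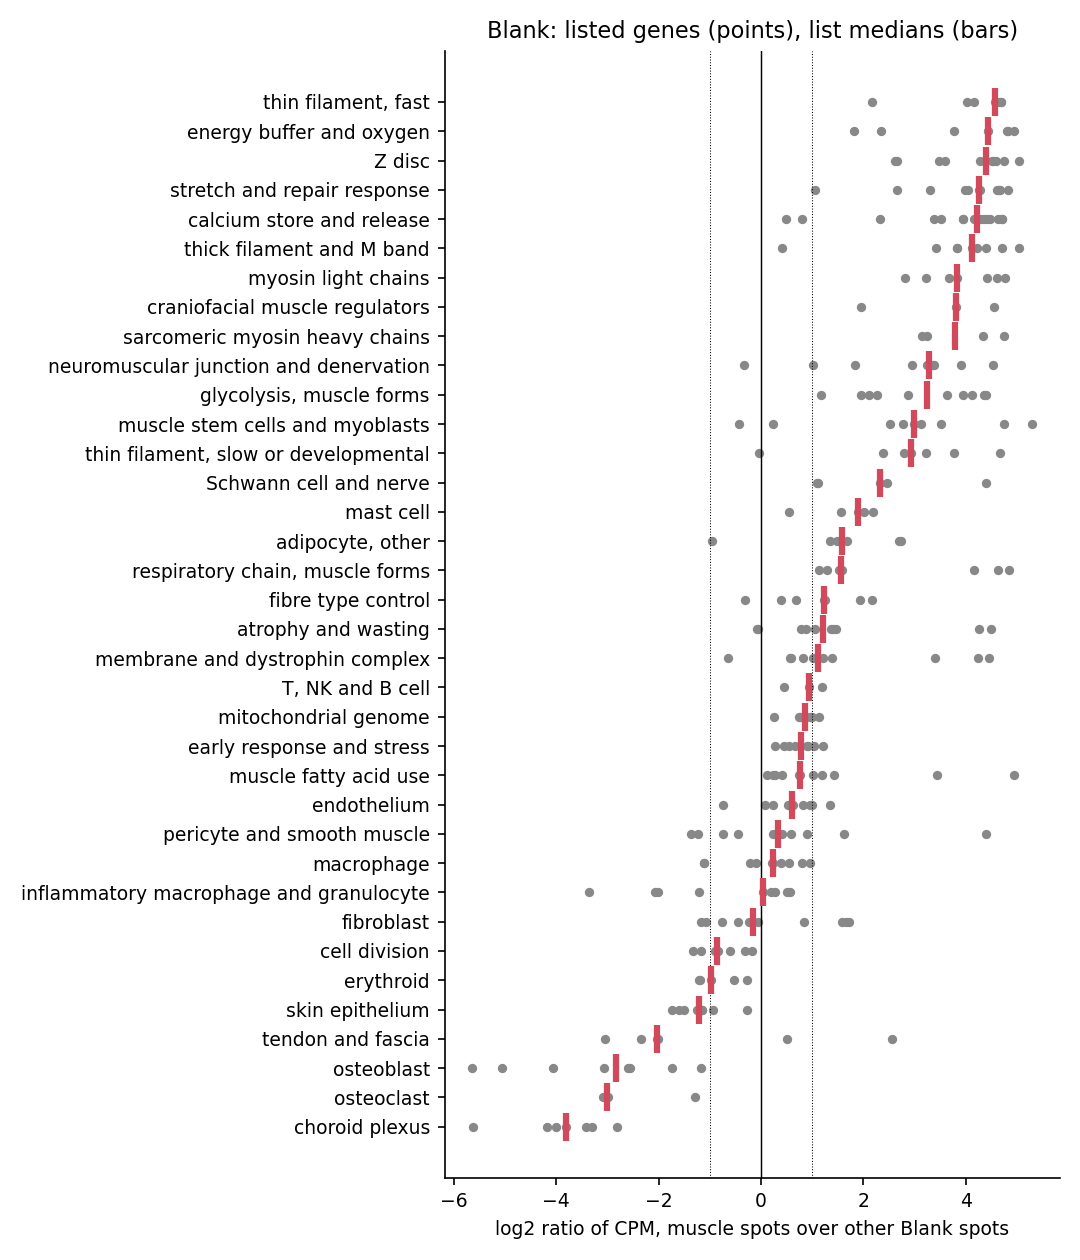
Each grey point is a listed gene that reached 10 CPM in either set of spots, placed by its log2 ratio of CPM in the 120 muscle spots over the 2009 other Blank spots, and red bars are list medians. Dotted lines mark 2-fold in either direction. Lists of the fast thin filament, energy buffer, Z disc, stretch and repair, calcium store and thick filament have medians above 4, and those of osteoclast, osteoblast and choroid plexus genes lie below −2.8.

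The motor proteins of the thick filament were led by Myh1, not by the gene that gave the set its name. Myh1 stood at 8129.96 CPM in the muscle spots and 303 in the other Blank spots (26.8-fold), and it was found in all 120, from 4 to 933 UMIs with a median of 61.5. Myh4 stood at 833 and 41.4 CPM (20.1-fold), was found in 103 of the spots and ranged from 0 to 96 UMIs with a median of 5. Myh7, the slow myosin of type I fibres, had 1 UMI in the muscle spots and 40 in the other Blank spots. Of the UMIs of the adult fast and developmental chains together (20198), Myh1 took 69.5%, Myh2 17.4%, Myh4 7.12%, Myh8 3.68% and Myh3 2.31%. The sources used here do not say how reads shared by near-identical myosin copies were assigned.

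The part played by Myh2 in this mix followed the rank, which the rule sets in part. It took 20.6% in ranks 1 to 40, 12.8% in ranks 41 to 80 and 10.3% in ranks 81 to 120, while the next 120 spots outside stood at 10.97%. In CPM, Myh4 stood at 862.5, 925.7 and 657.5 in the 3 parts, and its share of the mix was 5.31%, 10.0% and 10.8%. The spots set aside for fat had a mix much like the chosen ones, with 15.7% Myh2 and 71.9% Myh1, at a lower muscle level: Myh2 stood at 525 CPM there. Among the 120 muscle spots Myh2 and Pvalb had a Spearman rank correlation of 0.534, Csrp3 and Pvalb one of 0.074, and Myh2 had 0.318 with Sln, 0.227 with Myh4 and 0.226 with Csrp3. Myh2 and Pvalb also rose with the share of the other muscle genes (0.584 and 0.736), and the correlations were not adjusted for that share. The spots were chosen on the summed share of Myh2, Sln and Csrp3. That choice bears on every correlation with these genes, so the values are only a description.

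**Figure D3:**
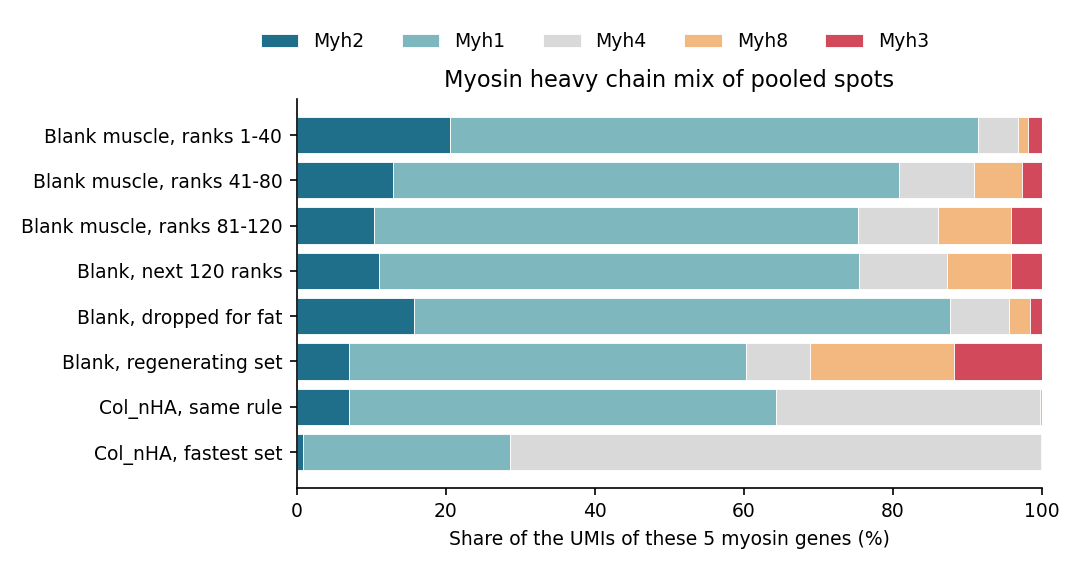
Bars show how the pooled UMIs of Myh2, Myh1, Myh4, Myh8 and Myh3 divide in each set of spots, in percent of their sum. Myh1 is the largest part in every Blank set and in the Col_nHA spots of the same rule, where Myh4 takes 35.4%, and Myh2 shrinks from 20.6% to 10.3% over the ranks of the Blank muscle spots.

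The other thick filament genes followed. The light chains Mylpf (6480.3 CPM, 21.4-fold) and Myl1 (5931.6 CPM, 24.4-fold) were the most abundant of their list, in which all 7 measured members were at least 2-fold higher than in the other Blank spots. Of the 9 measured genes of the thick filament and M band, 8 were at least 2-fold higher, with Ttn, the giant spring titin, at 1262.6 against 89.1 CPM (14.2-fold). Myom3, a myomesin of the M band, stood at 89.2 against 2.73 CPM (32.7-fold, 24.7 to 43.6). Obsl1, at 51.0 against 38.6 CPM, was the member that did not reach 2-fold.

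In the thin filament, the fast forms stood higher with or without the 19 spots rich in genes of regenerating fibres, which are described further on, while several slow or developmental forms rested on those 19. All 7 measured fast genes were at least 2-fold higher, with a median log2 ratio of 4.58. Acta1, skeletal actin, had 19299.0 against 809 CPM (23.8-fold) and was found in every muscle spot, from 7 to 2190 UMIs with a median of 156. Tnnt3, fast troponin T, had 4611.7 against 180 CPM (25.6-fold). Of the 7 slow, cardiac or fetal forms, 6 were at least 2-fold higher, with a median log2 ratio of 2.93. Slow troponin I, Tnni1, had 247 against 35.6 CPM (6.93-fold) and was found in 54 of the 120 spots, with 57.0% of its UMIs in 5 of them. In the 101 muscle spots outside the 19, 3 of these 7 forms were at least 2-fold higher, with a median log2 ratio of 0.65. Tnni1 stood at 52.4 CPM there (1.47-fold), Tnnt2, the cardiac and fetal troponin T, at 24.7 against 15.7 (1.57-fold), and Tnnc1, the slow and cardiac troponin C, at 18.7 against 31.3. Actn2, Tnnt1 and Actc1 were 24.7-fold, 11.5-fold and 3.06-fold higher in the 101. Tpm3, a tropomyosin that many cell types make, stood at 236 against 244 CPM.

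Genes of the Z disc and of the response to stretch and repair are the company of Csrp3 by function. All 11 measured Z disc genes and all 11 of the stretch and repair list were at least 2-fold higher, with median log2 ratios of 4.40 and 4.26. Des, the intermediate filament desmin that ties Z discs together, had 1596.9 against 75.6 CPM (21.1-fold) and was found in 115 spots. Ankrd2, a stretch-responsive ankyrin repeat protein, had 92.7 against 3.27 CPM (28.4-fold, 21.8 to 37.1). Its relative Ankrd1 had 110 against 5.71 CPM (19.2-fold, 15.5 to 23.8) and was found in 54 spots, from 0 to 28 UMIs. Fhl1, a LIM protein like Csrp3, had 1898.8 against 120.7 CPM (15.7-fold).

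Sln acts on the calcium pump, and most calcium store genes stood higher, those of fast fibres among them. Of 17 measured genes, 15 were at least 2-fold higher, with a median log2 ratio of 4.21. Atp2a1, the calcium pump of fast fibres, had 3910.0 against 150 CPM (26.2-fold) and 0 to 374 UMIs per spot with a median of 35.5. Atp2a2, the pump of slow fibres and of many other cells, had 273 against 157 CPM (1.74-fold, 1.58 to 1.92). Mrln, which encodes another peptide that binds the pump, had 29.0 against 2.80 CPM (10.3-fold), and Pln, the related peptide of heart and slow fibres, had 5 UMIs in all 120 spots. Pvalb, the calcium buffer of fast fibres, had 1407.4 against 56.8 CPM (24.8-fold). Casq2, of slow and cardiac stores, stood higher as well, 4.79-fold in the 101 muscle spots outside the 19 rich in genes of regenerating fibres.

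Energy supply genes of muscle stood higher as well. Ckm, the creatine kinase of the cytosol, had 4980.8 against 179 CPM (27.8-fold), and all 7 genes of its list were at least 2-fold higher. All 10 measured glycolysis genes in muscle forms were at least 2-fold higher, among them Eno3 (1543.6 CPM, 21.0-fold), while Ldha, which most tissues use, stood at 1093.96 against 484 CPM (2.26-fold). In the respiratory chain the muscle isoform Cox8b was 28.8-fold higher (26.1 to 31.7) and the common subunit Sdha 2.21-fold. The 10 genes of the mitochondrial genome had a median log2 ratio of 0.86, and 1 of them, mt-Co1, reached 2-fold, at 12819.3 against 5828.4 CPM. Of the 11 measured fatty acid genes, 5 were at least 2-fold higher, with Ucp3, an uncoupling protein of muscle mitochondria, 30.8-fold higher (17.98 to 54.2) from 42 against 22 UMIs.

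Regulators of muscle identity were detected at low counts. Among transcription factors of head muscle, Isl1 had 20 UMIs (14.0-fold, 7.31 to 26.7), Tbx1 59 (3.87-fold), and Tcf21 none in the muscle spots. Pax7, the marker of muscle stem cells, had 10 UMIs in the muscle spots and 3 in the other Blank spots, a ratio of 53.8 with an interval of 13.9 to 304. Myf5, of stem cells and early myoblasts, had 12 and 8 UMIs. These counts are too small to rank the 2 genes.

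Genes of new fibres were unevenly spread over the muscle spots. Myh3 stood at 270 CPM in the muscle spots and 28.4 in the other Blank spots (9.50-fold, 8.45 to 10.7), yet its median was 0 UMIs, its highest spot had 79, and 5 spots held 55.2% of its UMIs. Myh8 stood at 431 and 48.6 CPM, with 5 spots holding 65.3% of its UMIs. No UMI of either gene was found in 41 spots, in 18 they made up at least 10% of the UMIs of the adult fast and developmental chains, and in 3 they outnumbered the adult fast chains. Myog, the factor that drives myoblasts to fuse, had 207 against 18.2 CPM (11.4-fold) and Mymk, the fusion protein myomaker, 95.6 against 11.99 (7.97-fold). Of the 9 measured stem cell and myoblast genes, 7 were at least 2-fold higher.

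Of the 120 spots with the highest share of Myh3, Myh8, Myog, Mymk and Mymx in the section, 19 were also muscle spots by the rule. Myh3, Myh8, Myog and Mymk were among the genes that chose these 19. Their values in the 19 and in the other 101 muscle spots follow in part from that choice and are given as a description. The 19 held 84.6% of the Myh3 and Myh8 UMIs of the 120. In the 19, Myh3 and Myh8 took 9.20% and 14.9% of the UMIs of the adult fast and developmental chains, and in the other 101 muscle spots 0.470% and 0.696%. In those 101 muscle spots, a set formed after seeing the data, Myh3 stood 1.97-fold and Myh8 1.71-fold above the other Blank spots, Mymk 2.18-fold and Myog 4.77-fold. There 6 of 8 measured stem cell and myoblast genes were at least 2-fold higher and 1 was lower, against 8.57% and 6.92% of all genes. Over the 120 spots the share of regenerating genes had a rank correlation of 0.011 with Myh2, a gene that chose the spots. The same share had 0.679 with Myl4, the atrial and embryonic light chain, and 0.593 with Tnni1. Csrp3 stood at 493 CPM in the 120 regenerating-gene spots and at 311 in the next 120 ranks of the rule against 1023.9 in the chosen spots. Myh2 stood at 367 and 398 CPM in those sets, against 2039.6. The 120 regenerating-gene spots include the 19, so both of their values hold counts from muscle spots. Of their 537 Myh2 UMIs the 19 held 446. The regenerating-gene spots outside the muscle set held 91, or 2.68% of the adult fast and developmental chains there.

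**Figure D4:**
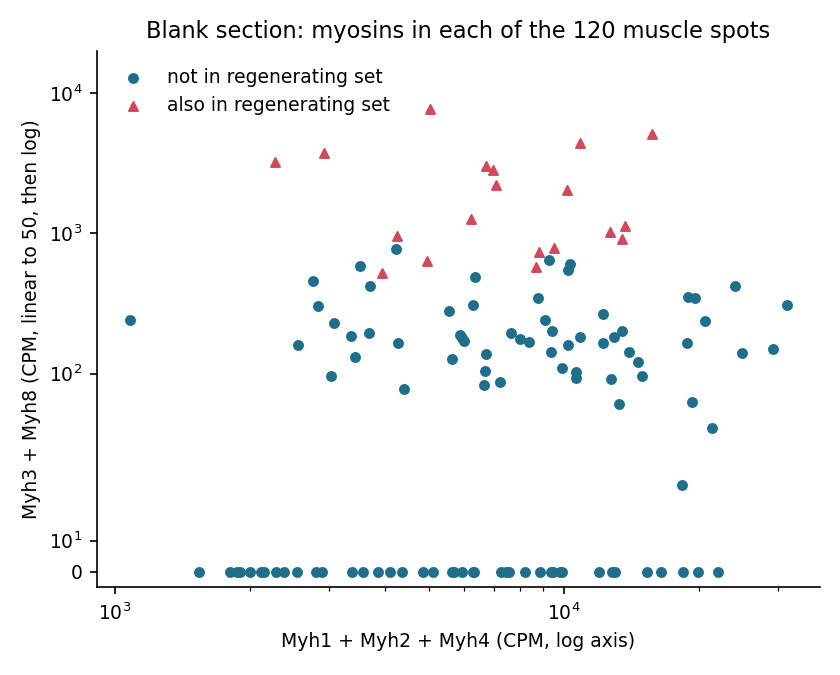
Each point is 1 of the 120 muscle spots, with the summed CPM of the adult fast chains Myh1, Myh2 and Myh4 on the x axis (log) and of the developmental chains Myh3 and Myh8 on the y axis (linear to 50, then log). The 19 triangles, spots also in the regenerating set, lie from 524 to 7691 CPM on the y axis and overlap the highest of the other spots, which reach 768, and 41 spots lie at 0 on the y axis over most of the range of adult chains. Myh3 and Myh8 are among the genes that chose the regenerating set.

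Genes of the nerve contact were present in the same spots. Of 10 measured genes, 9 were at least 2-fold higher, among them Chrna1, the main subunit of the acetylcholine receptor, at 66.6 against 6.71 CPM (9.93-fold). Clcn1, the chloride channel that steadies the fibre membrane, was 23.0-fold higher (13.5 to 39.5) from 37 and 26 UMIs. Chrng, the fetal receptor subunit, had 42 and 72 UMIs (9.42-fold, 6.28 to 14.0) and was found in 21 spots. In the 101 muscle spots outside the regenerating set, 5 of 7 measured genes of this list were at least 2-fold higher and the median log2 ratio was 1.92, against 3.27 in all 120. Chrng stood at 6.73 CPM in those 101 (2.60-fold), Chrna1 at 25.4 (3.79-fold) and Clcn1 at 24.7 (26.4-fold). In the wasting list 6 of 10 measured genes were at least 2-fold higher, with the ubiquitin ligase Trim63 at 90.4 against 4.74 CPM (19.1-fold) and Mstn, the growth inhibitor myostatin, at 18 and 13 UMIs. Of the 10 genes of the membrane and dystrophin complex 6 were, though that list summed to 0.315% of pooled UMIs against 0.390% in the other Blank spots. Fibre type control factors had 4 of 7, Sox6 the farthest at 17.96 against 3.98 CPM (4.51-fold). With all 120 spots, 8.43% of all genes were at least 2-fold higher.

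Genes of other cell types were measured in the same spots. All 5 measured nerve genes were at least 2-fold higher. The summed nerve list ranged from 0% to 3.46% of a spot's UMIs, with 1.42% the next highest, and the spot at the top held 12032 UMIs at rank 71. Mast cell genes had 4 of 5 at least 2-fold higher, with the protease gene Cma1 at 118 against 29.2 CPM and in 66 spots, and they summed to 0% to 0.2502% of a muscle spot's UMIs against 0% to 0.509% elsewhere. The part of nerve and mast cells in the muscle values was not tested.

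The spots were outside the richest fat, not free of fat genes. The 5 fat genes of the rule summed to a median of 0.0192% of UMIs, from 0% to 0.180%, in the muscle spots. Cfd, the secreted protease adipsin, stood at 228 CPM in the muscle spots, 68.5 in the other Blank spots and 4413.6 in the spots set aside for fat. With the fat spots counted among the others, Cfd, Adipoq and Retn turned to log2 ratios of −0.05, −0.39 and −0.27. Of the 6 measured fat cell genes outside the rule, 5 were at least 2-fold higher, led by Plin4 (6.67-fold) and Car3 (6.44-fold), a carbonic anhydrase that muscle makes as well. Leptin, Lep, had no UMI in the muscle spots.

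Connective tissue and bone genes split. Among 10 fibroblast genes, 3 were at least 2-fold higher, with Pi16 at 585 against 177 CPM (3.30-fold) and Dpt, dermatopontin, at 942 against 317 (2.97-fold), and 2 were at least 2-fold lower, the type I collagen genes Col1a1 and Col1a2. Col1a1 stood at 14555.2 against 32707.4 CPM. Of 6 tendon genes 4 were at least 2-fold lower, while Thbs4, a matrix protein of muscle and tendon, was 5.92-fold higher. All 8 osteoblast genes, all 4 osteoclast genes and all 7 choroid plexus genes measured were at least 2-fold lower. Bglap, osteocalcin, had 12.7 against 634 CPM (49.7-fold lower), with its near-identical copy Bglap2 33.5-fold lower, and Ttr, transthyretin of the choroid plexus, had 658 against 11858.7 CPM (18.02-fold lower). The choroid plexus list had 366000 UMIs in the other Blank spots, and 331983 of them lay in 120 spots rich in choroid plexus genes. By spot, the median share of this list was 0.0600% in the muscle spots and 0.0799% in the other Blank spots. Macrophage genes had none of 10 at least 2-fold higher and 2 at least 2-fold lower, against 8.43% and 6.37% of all genes. With 10 genes, a count of none higher does not set this list apart. C1qa stood at 694 against 476 CPM and Lyz2 at 2025.1 against 4385.1.

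Shares of spots with a UMI were compared at a common depth of 3000 UMIs per spot, beside 120 Blank spots rich in choroid plexus genes, a tissue without muscle fibres. At that depth Myh2 was found in 92.5% of the muscle spots (Clopper-Pearson 86.2% to 96.5%), in 12.8% of the other Blank spots and in 6.67% of the choroid plexus gene spots (median depths 12099, 9805 and 7771.5 UMIs), and unthinned in 99.2%, 26.8% and 20.8%. Among barcodes under the UMI threshold that still held 3000 UMIs, 263 in number, it was found in 17.9%. Csrp3 gave 80.8% (72.6% to 87.4%), 12.3% and 5%, and unthinned 95.8%, 24.8% and 15.8%. Sln gave 30% (22.0% to 39.0%), 1.39% and 0.00%, the last from 0 of 120 spots with an upper bound of 3.03%, and unthinned 57.5%, 5.08% and 2.5%. Acta1 gave 100%, 54.5% and 50.8% (unthinned 100%, 78.3% and 73.3%), so a UMI of this gene alone does not mark a muscle spot. The share in the other Blank spots lay close to that in the choroid plexus gene spots. Yet the other muscle genes reached 15.1% of UMIs in 1 of the other Blank spots, against at most 2.53% in the choroid plexus gene spots. Where the Acta1 RNA of these spots came from was not tested.

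Spots were chosen by the same steps in the Col_nHA section, with that section's own UMI threshold (2471 spots, the lowest with 4690 UMIs), to set the muscle of both sections side by side. These 120 spots held 4727 to 30899 UMIs with a median of 13997.5. Their rule share ran from 1.03% to 0.0556%, the last from 8 UMIs, so the rule reached lower there. All 4992 barcodes occur in both files, and none of the 120 muscle spot barcodes was among the Col_nHA 120. The 2 sets differed in muscle content: the 108 other muscle genes took a median of 7.59% of UMIs in the Blank spots and 22.1% in the Col_nHA spots, and 47 and 110 of the 120 had at least 10%. Mitochondrial genes summed to 6.63% and 24.6% of the pooled UMIs. Of 9544 genes that reached 10 CPM in either set, 4016 (42.1%) were at least 2-fold higher in the Blank spots and 287 (3.01%) at least 2-fold lower, with a median log2 ratio of 0.85, which is the shift against which single genes are to be read. The material, the animal, the place of the cut and the muscle content cannot be told apart.

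Set against that shift, developmental muscle genes stood higher in the Blank muscle spots. Myh3 had 466 UMIs in the Blank and 4 in the Col_nHA spots, a ratio of CPM of 115 (44.7 to 425), and of 221 when expressed per UMI of the listed muscle genes, a scale on which the median log2 ratio of all genes is 1.79. Myh8 had 743 and 100 UMIs (7.35-fold in CPM, 14.1-fold per muscle UMI), and Myl4 1339 and 38 (34.9-fold and 66.9-fold). Fetal and cardiac troponin T, Tnnt2, had 207 and 4 UMIs, and the fusion gene Mymk 165 and 3, a ratio of 54.4 (18.3 to 267). Of the 7 slow or developmental thin filament genes 5 were at least 2-fold higher in the Blank spots and none lower, and of the 9 stem cell and myoblast genes 8 were, against 42.1% of all genes. Per muscle UMI 83.8% of all genes were at least 2-fold higher and 0.608% at least 2-fold lower, so that scale sets few genes apart by a count. In the 101 muscle spots outside the regenerating set the counts were 5 of 7, with 1 lower, and 5 of 8, against 40.1% of all genes higher and 2.97% lower. In those 101, Myh3 stood at 56.1 CPM and Myl4 at 183, against 2.34 and 22.3 in the Col_nHA spots.

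The genes of the fastest fibres went the other way, as did some muscle genes not tied here to a fibre type. Myh4 stood at 833 CPM in the Blank and 7266.5 in the Col_nHA spots (8.72-fold lower in Blank, 8.26 to 9.22; 4.54-fold per muscle UMI), and took 7.12% and 35.4% of the adult fast and developmental chains. In the 120 Col_nHA spots richest in Myh4, Mybpc2 and Pvalb, called the fastest set, Myh4 took 71.3% and Myh2 0.827%, and 22 of those spots were also among the 120 of the same rule. Mylk4, a myosin light chain kinase, was 8.91-fold lower and Mybpc2, the fast myosin-binding protein C, had 214 against 1093.6 CPM. Mettl21c and Mss51, muscle genes that the lists do not hold and that are not tied here to fast fibres, had 2 against 176 and 8 against 238 UMIs. Pvalb stood at 1407.4 and 6526.7 CPM and Ckm at 4980.8 and 16816.7, which per muscle UMI is 2.42-fold and 1.76-fold lower in Blank.

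The rule's genes, which chose the spots in both sections, are given as a description, and they stood higher in the Blank spots on either scale: Myh2 at 2039.6 against 1424.5 CPM (1.43-fold, 2.75-fold per muscle UMI), Csrp3 at 1023.9 against 501.4 (2.04-fold, 3.92-fold) and Sln at 177 against 56.8 (3.11-fold, 5.97-fold). The ratios in CPM of Myh2 and Csrp3 lie on either side of the 0.85 median on the log2 scale. Myh1 and Acta1 depend on the scale, with ratios of 0.690 and 0.656 in CPM and 1.33 and 1.26 per muscle UMI. The load-responsive Ankrd1 had 110 against 18.7 CPM (5.84-fold), while Ankrd2 had 92.7 against 103, a ratio that is 0.904 in CPM and 1.74 per muscle UMI. Casq2, the calcium-binding protein of slow and cardiac stores, had 162 against 32.8 CPM (4.95-fold) and Atp2a2 273 against 76.1 (3.59-fold). All 10 mitochondrial genome genes, 6 of 7 energy buffer genes and 7 of 11 glycolysis genes were at least 2-fold lower in Blank in CPM.

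Genes of other cells differed by list between the sections. Nerve genes had 5 of 5, mast cell genes 5 of 5, fibroblast genes 9 of 10, macrophage genes 9 of 10 and skin genes 8 of 8 at least 2-fold higher, against the 42.1% of all genes. Endothelial genes had 1 of 10, pericyte and smooth muscle genes none of 9 and tendon genes 1 of 6 at least 2-fold higher, the last with 2 lower. Osteoclast genes had 3 of 4 and osteoblast genes 5 of 7 at least 2-fold lower, and none of either higher. Ttr had 1136 UMIs in the Blank and 1 in the Col_nHA spots, and the cornified envelope gene Lor 219 and 1. Osteocalcin, Bglap, went the other way, with 22 and 1020 UMIs. The part of these cells in the muscle differences was not tested.

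**Figure D5:**
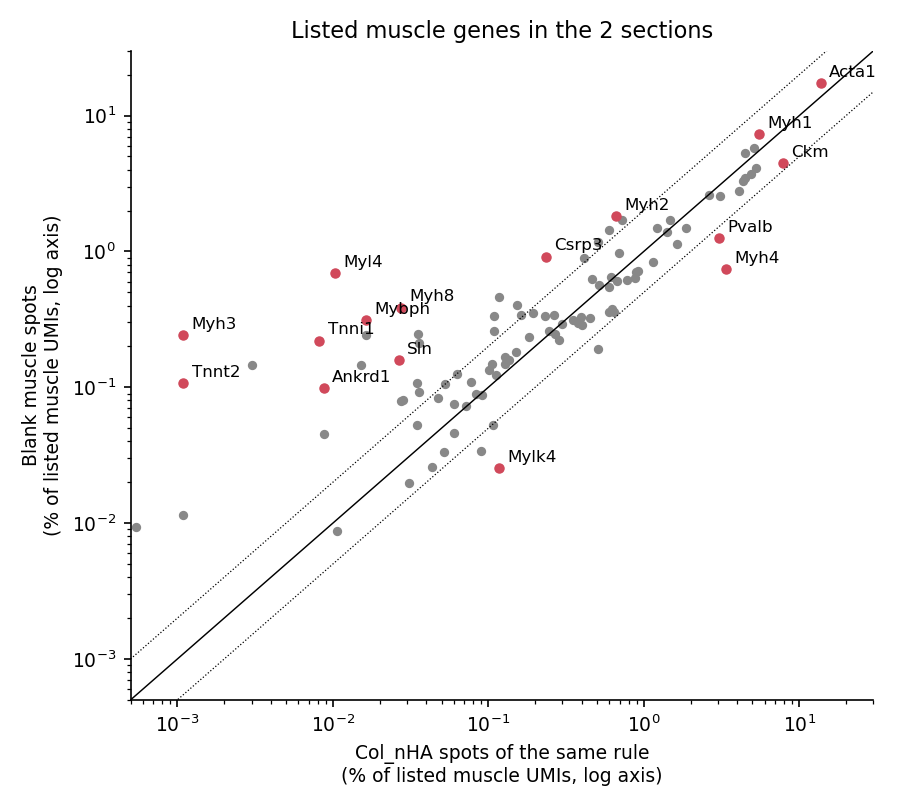
Each point is a listed muscle gene with a UMI in both sets and 10 CPM or more in either, placed by its share of all listed muscle UMIs in the Col_nHA spots of the same rule (x axis, log) and in the Blank muscle spots (y axis, log). The solid line is equality and the dotted lines 2-fold; red points are labelled genes picked after their values were seen. Myh3, Tnnt2 and Myl4 lie far above the line, Myh4, Mylk4 and Pvalb below it, and Myh2, Csrp3 and Sln above it.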

How the data were processed

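One section per group was analysed, from mouse calvarial bone on a spatial array. The deposited matrices hold raw UMI counts for 31053 genes and 4992 barcodes each, and per the submitters' processing notes the authors used Space Ranger (version not given in the sources used here) with genome build mm10; per the file headers the software was Cell Ranger 4. The labels' extraction text describes a droplet single-cell library, whereas the labels call the samples fresh-frozen spatial sections. The UMI minimum was an Otsu threshold on log10 totals in each section; kept spots carried 88.1% of all UMIs in Blank (34868368 UMIs) and 89.1% in Col_nHA (45137685). Doublets were not called, as spots are not cells.

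UMIs were summed over spots and scaled to CPM. Ratios carry exact conditional binomial 95% intervals, which cover counting error only, since PCR and spots of 1 section are not independent samples. A set at 0 was put at a floor of 3 counts, and genes needed 10 CPM in one or both sets. Per muscle UMI means the share of the summed UMIs of the rule's 3 genes and 108 other muscle genes. For shares of spots, each spot was thinned to 3000 UMIs; all 2249 kept Blank spots were deep enough. Gene lists (38, with 345 symbols, all found) covered muscle roles and other cell types. The muscle spots and lists were chosen with earlier results of these data known. Genes were named by a rule: the rule's muscle and fat genes; the 15 highest and 10 lowest ratios within Blank and the 8 highest and lowest between sections among genes with 50 CPM in one or both, with mitochondrial, ribosomal, haemoglobin and unnamed genes left out; and, per list, the 2 of highest level and the 2 farthest from equality. The list members Ankrd1, Atp2a2, C1qa, Casq2, Chrng, Col1a2, Dpt, Ldha, Lep, Mrln, Mybpc2, Myf5, Myh7, Myh8, Myl4, Mymx, Obsl1, Pax7, Pln, Sdha, Tcf21, Tnni1 and Tpm3 lie outside this rule and were named after their values were seen. Promoter windows and positions came from RefSeq tables of GRCm38.p6. Python 3.11.15 with numpy 2.4.6, scipy 1.17.1 and pandas 2.3.3 was used, and the ratios and intervals were tested on simulated data. Alternatives changed the UMI threshold, the fat cut, the number of spots, the rule's genes, the scaling and the minimum CPM, and 4 settings were added after seeing the data. Some genes of the lists are not reported here.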

Additional observations from a re-analysis of the deposited data

How the results depend on the processing

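No paired analysis was possible because each group has 1 section. All 855 higher and 646 lower genes within Blank, and the 4016 higher and 287 lower between sections, are counts at 2-fold without a test. Within Blank the lower count became 1043 with the top 60 spots, 342 with the top 240, 199 at a minimum of 50 CPM, 1509 with no minimum and 1260 with only the spots of at least 10% other muscle genes, a setting added after seeing the data. The higher count became 425 at 50 CPM and 2082 with no minimum. Higher genes made up 57.0% of those past 2-fold, against 46.9% with the top 60 spots, 68.9% with the top 240, 70.1% with the total counted without the listed muscle genes (which moves the median log2 ratio of all genes from −0.04 to 0.13), 68.1% at 50 CPM and 44.6% with only the spots of at least 10% other muscle genes. Between sections the higher count became 1347 at 50 CPM and 8000 per total of the listed muscle genes, also added after seeing the data, and the lower count 528 without mitochondrial, ribosomal protein and haemoglobin genes in the total, 161 at 50 CPM, 631 with no minimum and 58 per total of muscle genes. The median log2 ratio of all genes, 0.85, became 0.57 without mitochondrial, ribosomal and haemoglobin genes, 0.67 without the listed muscle genes and 1.79 per total of the muscle genes.

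The direction turned for the skin list within Blank with the top 240 spots (median log2 0.016) and, with the fat spots among the others, for Cfd (−0.052), Retn (−0.27), Adipoq (−0.39) and the fat rule genes (−0.27). Between sections it turned for the median of the 4 measured myosin heavy chains, 1.17, which lies between Myh8 and Myh1: it was −1.95 at 6000 UMIs, −1.89 with 240 spots dropped for fat, −0.66 with the top 240 spots, −1.72 for the rule without Myh2 and −0.48 with no minimum. The cause was not tested. Of the muscle spots, 101 were chosen again at 2000 UMIs and 87 at 6000. Spots with few UMIs of the rule's genes limit how firmly the last ranks belong to the set.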
